A study of Mus musculus with 4 samples.

Results

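RNA levels of 41 cyclins, cell cycle kinases, kinase inhibitors, replication licensing genes and mitotic genes were compared between wild-type and MommeD43 mouse embryos. The members were chosen by name, as the rows of the deposited table that carry a listed gene symbol, and all 41 were found among its 33708 rows. They were ordered in lists by phase of the cell cycle, with 8 genes for G1, 6 for the G1/S transition, 9 for S phase, and 18 for G2 and M. A place in a list does not mean that the product acts in that phase alone.

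The libraries were made to ask whether the MommeD43 allele changes gene expression where the nose and snout form. The tissue was the frontonasal prominence (FNP), the bud at the front of the embryonic head that forms the forehead and nose. It was dissected at E10.5 from embryos with 29 somites on the FVB/NJ background, along its border with the maxillary prominence. There were 2 Smchd1+/+ embryos (WT) and 2 homozygous Smchd1 MommeD43/MommeD43 embryos (MD43). MommeD43 is a missense allele made by ENU, a chemical mutagen, that lies in the extended ATPase domain of SMCHD1, a chromatin protein needed for gene silencing. By the labels the WT embryos were 1 female and 1 male and both MD43 embryos were male, while another record of the study names both WT embryos female, and sex and genotype cannot be told apart in that case. One mother gave an embryo to each genotype, and the other 2 embryos came from 2 other mothers.

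The cell cycle is driven by kinases that are active only with a cyclin partner. D cyclins with Cdk4 or Cdk6 act in G1 and phosphorylate the retinoblastoma protein, which frees E2F transcription factors to switch on cyclin E and the genes of DNA replication. Cyclin E with Cdk2 starts S phase, the Mcm helicase unwinds the DNA, and cyclins A and B with Cdk1 carry the cell into mitosis. Genes of the G2 and M phases are held down earlier in the cycle by the DREAM complex, which reaches them through a short promoter element named CHR, often beside boxes bound by NF-Y. In the facial prominences at this age most mesenchymal and epithelial cells still divide.

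The table gave 1 value per gene and genotype, the log2 RPKM (reads scaled to exon length in kilobases and to library size) of the 2 libraries of that genotype pooled. Values for single embryos were not analysed here, so the spread between embryos is unknown, no difference below was tested, and no p-value is given. A fold rule stands in for a test, and a gene was counted as higher or lower in MD43 when its RPKM was at least 25% higher, or at least 20% lower, which is 0.322 on the log2 scale either way. The reads behind each value were recovered from the values of genes without reads, and gave an estimated 16055882 reads per library for WT and 22328791 for MD43. The counting standard error given below is the smallest error that these reads allow, and covers counting error only. Over the 10757 well-covered genes, those with 100 reads or more in WT and in MD43, the median log2 difference (MD43 minus WT) was 0.013 and the SD of the differences across genes was 0.227. Smchd1 itself, which a missense allele need not change, stood at 9.93 RPKM in WT and 9.84 in MD43.

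Promoter sequence was taken from RefSeq, as windows from 250 bases before to 50 after each annotated start in build GRCm38.p6. Of the 41 members, 33 had such a window, and Ccnd1, Ccnd2, Ccne2, Mcm4, Ccna2, Aurkb, Kif20a and Tpx2 had none. Each window was searched on both strands for the E2F word TTCCCGC, its variant TTGGCGC, another variant TTCGCGC and a further variant TTGCCGC, then for the CHR word, which is TTTGAA, and for the NF-Y word, which is CCAAT. The windows of 7 genes are shown in part, written 5′ to 3′ in the direction of the gene, with the words in capitals and a reverse-strand word written as its complement. Mcm5 (chr8:75109339-75109508, + strand) and Mcm6 (chr1:128359706-128359820, - strand) are shown for S phase, since Mcm5 had the largest difference of that phase and both hold E2F words. Ccnb2 (chr9:70421555-70421649, - strand), Cdk1 (chr10:69352913-69353002, - strand) and Cdc20 (chr4:118437344-118437403, - strand) are shown for G2 and M, where NF-Y and CHR words lie together. Ccne1 (chr7:38107535-38107640, - strand) and Cdkn1b (chr6:134920301-134920400, + strand) are shown for the cyclin with the largest difference and for an inhibitor that differed the other way.
Mcm5: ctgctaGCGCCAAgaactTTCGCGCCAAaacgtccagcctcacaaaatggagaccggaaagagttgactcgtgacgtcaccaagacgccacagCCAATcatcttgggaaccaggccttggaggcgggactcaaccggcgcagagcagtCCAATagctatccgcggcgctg
Mcm6: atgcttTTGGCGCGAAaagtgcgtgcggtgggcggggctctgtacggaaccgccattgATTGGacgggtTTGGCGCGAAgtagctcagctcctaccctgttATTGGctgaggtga
Ccnb2: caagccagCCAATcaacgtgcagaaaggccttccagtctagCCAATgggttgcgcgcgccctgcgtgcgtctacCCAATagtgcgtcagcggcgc
Cdk1: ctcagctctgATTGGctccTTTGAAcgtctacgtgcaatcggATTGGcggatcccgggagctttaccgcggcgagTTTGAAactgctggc
Cdc20: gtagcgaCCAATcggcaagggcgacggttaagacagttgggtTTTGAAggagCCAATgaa
Ccne1: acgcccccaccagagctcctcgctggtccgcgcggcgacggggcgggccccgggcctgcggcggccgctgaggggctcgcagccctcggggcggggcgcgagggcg
Cdkn1b: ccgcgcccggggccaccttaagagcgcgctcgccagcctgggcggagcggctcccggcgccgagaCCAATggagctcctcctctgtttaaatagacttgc

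In Mcm5 the E2F words lie from 164 to 143 bases before the start, and in Mcm6 from 109 to 100 and from 46 to 37 bases before it, where words of opposite strands overlap in each run of capitals. In Ccnb2 3 NF-Y words of the same strand begin 87, 54 and 21 bases before the start, a spacing of 33 bases each time. Its CHR words begin 167 bases before and 4 bases after the start, outside the stretch shown. In Cdk1 the NF-Y words begin 80 and 48 bases before the start, 32 bases apart, with a CHR word between them and another 15 bases before the start. Outside the stretch shown, Cdk1 has a further NF-Y word that begins 208 bases before the start and E2F words that begin 178 and 130 bases before it, and Mcm6 has a further E2F word that begins 24 bases after the start. In Cdc20 the CHR word begins 18 bases before the start, between NF-Y words at 53 and 8 bases. The whole window of Ccne1 held none of these words, and that of Cdkn1b held only NF-Y words.

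The words were spread unevenly over the phases. Counts are of genes with a window, and a gene with more than 1 window was counted if any of them held the word. An E2F word was found in 6 of 8 S phase genes (75%) and in 3 of 5 G1/S genes (60%). It was found in 3 of 14 G2 and M genes (21.4%) and 1 of 6 G1 genes (16.7%). Of 8070 well-covered protein-coding genes with a window, 20.9% held one, and of all 27025 genes with a window 10.9% did. The CHR word was in 10 of 14 G2 and M genes (71.4%), 2 of 5 G1/S genes (40%), 1 of 8 S phase genes (12.5%) and no G1 gene. It was in 13.6% of the well-covered protein-coding genes and in 20.2% of all genes. The NF-Y word was common everywhere, in 43.5% of the well-covered protein-coding genes, and was in 13 of 14 G2 and M genes (92.9%).

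**Figure D1:**
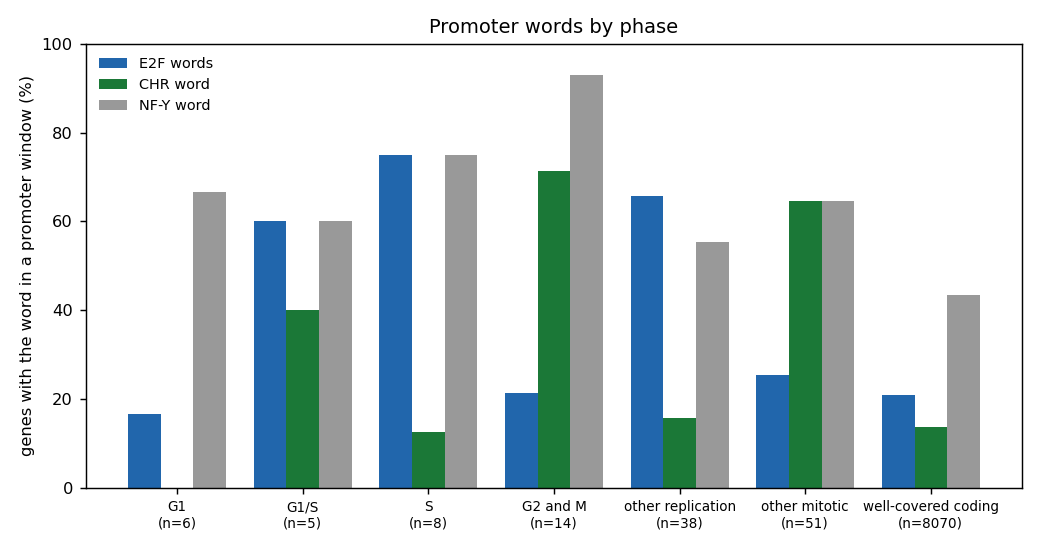
Share of genes (percent, y axis) whose promoter window holds an E2F word (blue), the CHR word (green) or the NF-Y word (grey), by list (x axis, n is the number of genes with a window). The blue bars are highest in S phase at 75% and the green bars in G2 and M at 71.4%, against 20.9% and 13.6% of all well-covered protein-coding genes.

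All 10 G2 and M genes with a CHR word also held an NF-Y word, a pair that 6.79% of the well-covered protein-coding genes carried. In 9 of those 10 genes a CHR word began no more than 30 bases before the start or after it. Of 13 neighbouring same-strand NF-Y pairs in G2 and M windows, 5 were 31 to 33 bases apart (Aurka, Ccnb1, Cdk1 and both pairs of Ccnb2), or 38.5%, against 10.7% of 1658 such pairs over the well-covered protein-coding genes. In the lists of other genes, an E2F word was in 25 of 38 other replication genes (65.8%) and a CHR word in 33 of 51 other mitotic genes (64.7%). Of neighbouring same-strand NF-Y pairs, 6 of 33 in other mitotic genes (18.2%) and 2 of 13 in other replication genes (15.4%) were 31 to 33 bases apart. This spacing was not part of the planned search. An E2F word overlapped an NF-Y word in 2 members, Ccnb1 and Mcm7. These matches describe letters and not bound sites.

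**Figure D2:**
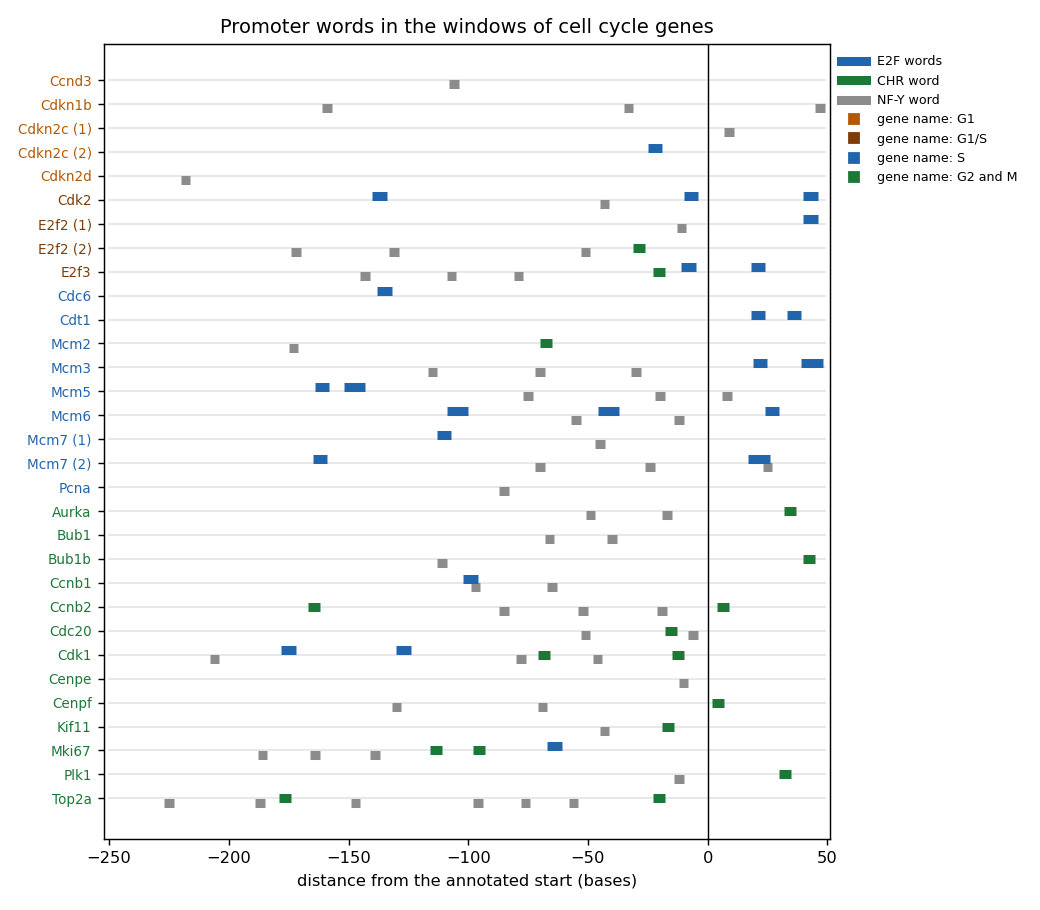
Position of each word in the promoter window (x axis, bases from the annotated start, from 250 before to 49 after with the start base at 0) for each member with at least 1 word (y axis, name coloured by phase). A number after a name tells apart the 2 windows of 1 gene, and words drawn in green, the CHR words, sit near the start in most G2 and M genes.

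As a group the members were among the most abundant RNAs of the tissue, where fewer cells of a type and less RNA per cell cannot be told apart. Ranked by the mean log2 RPKM of both genotypes, 26 of the 41 were in the top 10% of expressed genes, and their median percentile was 94.3. Between genotypes most differed little, with a log2 difference under 0.1 in size for 20 members and under 0.2 for 30. MD43 was higher for 27 members and lower for 14, and the median difference was 0.060. Of the 10757 well-covered genes, 5685 were higher in MD43 and 5072 lower. By the fold rule 2 of 41 members were higher in MD43 (4.88%), against 10.3% of the 15377 expressed genes, which had 10 reads or more in WT or MD43, and 2 of 41 were lower (4.88%), against 13.9%. Among well-covered genes 1 of 39 members was higher (2.56%, against 4.34% of all such genes) and 2 of 39 were lower (5.13%, against 7.15%). The members past the rule were Ccne1 and Kif11, higher in MD43, and Ccnd2 and Cdk6, lower. The nearest members short of it were Cdkn2c at -0.28 and Mcm5 at 0.28. The shares past the rule were thus below or near those of all genes.

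**Figure D3:**
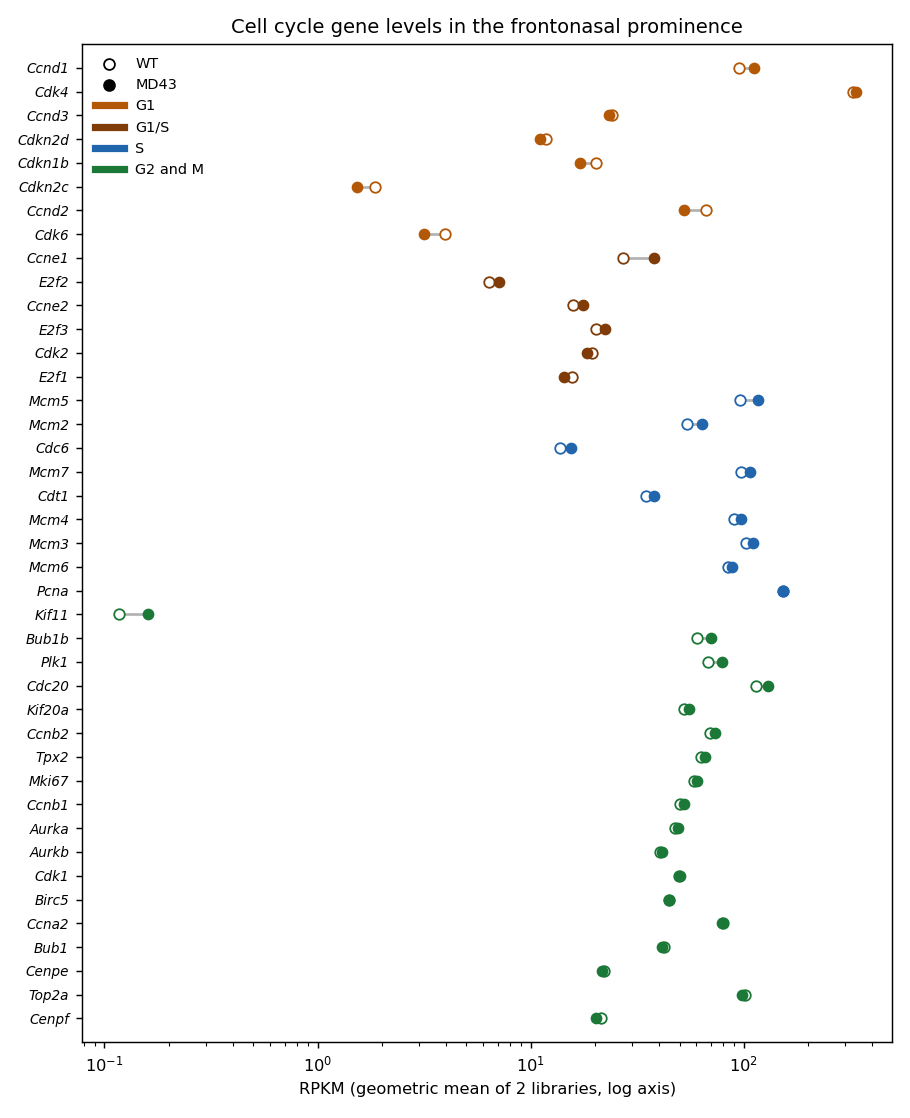
RPKM (x axis, log scale) of the 41 members (y axis, coloured by phase and ordered within it by difference) in WT (open circles) and MD43 (filled circles), each the pooled value of 2 libraries. Cdk4 lies highest at 326 RPKM in WT and Kif11 lowest at 0.117, and for most genes the circles nearly touch.

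The phases differed in where their members lay. The median log2 difference was -0.17 for G1, with 6 of 8 members lower in MD43. It was 0.15 for the G1/S transition, with 4 of 6 higher, and 0.12 for S phase, with 8 of 9 higher. For G2 and M it was 0.050, with 13 of 18 higher. The quartiles of all well-covered genes were -0.111 and 0.126, and the medians of S phase and of G2 and M lay between them. Of those 10757 genes, 5685 were higher in MD43. Summed RPKM were 549.8 in WT and 556.3 in MD43 for G1, 104.5 and 117.9 for G1/S, 726.9 and 788.9 for S, and 985.3 and 1035 for G2 and M. Cdk4 and Ccnd1 made up most of the G1 sum, and both were higher in MD43 while the other 6 members were lower. Without Cdkn2c, the G1 member with the fewest reads, the G1 median was -0.089. Summed markers of surface ectoderm (119.9 RPKM in WT and 188.0 in MD43) and red blood cells (3061 and 5820) were also higher in MD43, those of neurons (120.4 and 111.2) were lower, and their part in these differences was not tested.

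**Figure D4:**
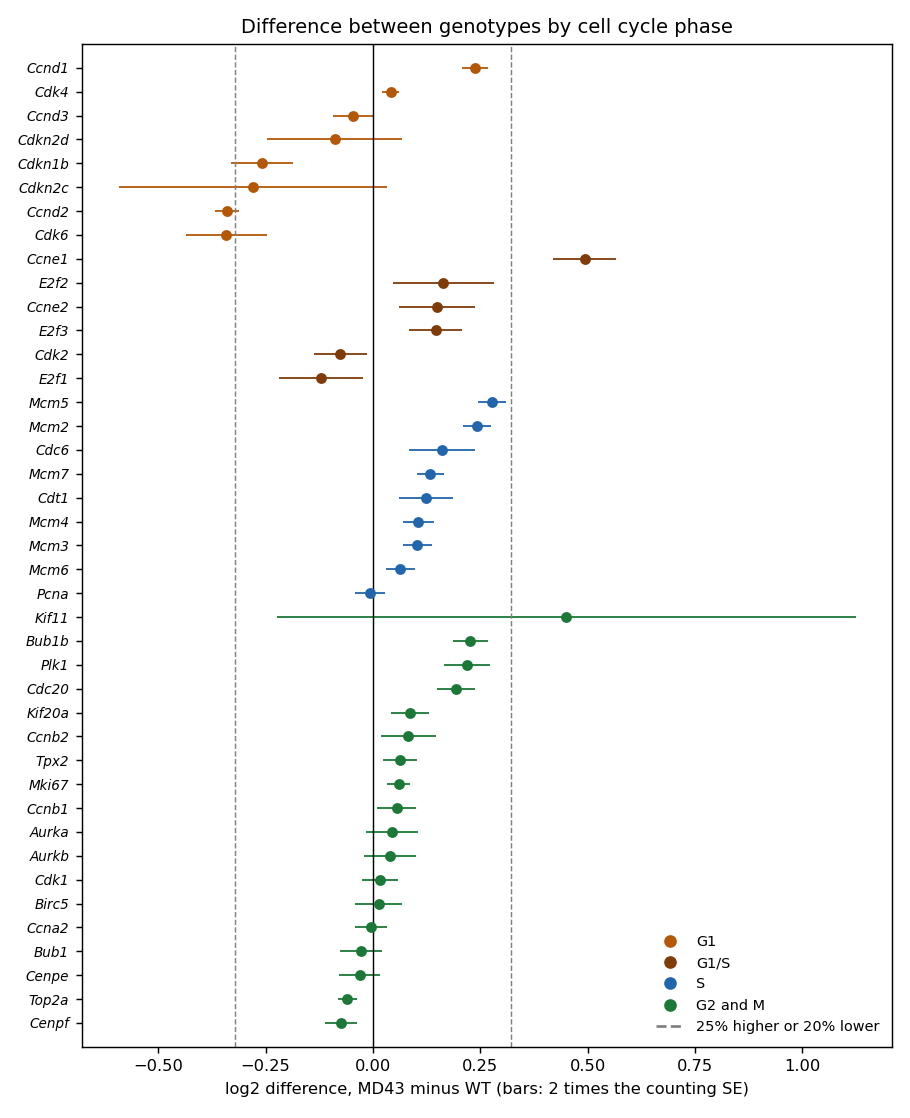
Log2 difference (x axis, MD43 minus WT) of each member (y axis, coloured by phase), with bars of 2 times the counting standard error and dashed lines at the fold rule. The points past a dashed line are Ccne1 and Kif11 on the right and Ccnd2 and Cdk6 on the left, and the bar of Kif11 crosses 0.

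Among the D cyclins, which carry growth signals into the cycle, Ccnd1 was higher and Ccnd2 lower in MD43. Ccnd1 stood at 95.3 RPKM in WT and 112.3 in MD43, a log2 difference of 0.24 (counting SE 0.0153). Ccnd2 (chr6:127125162-127152193) stood at 66.5 and 52.5, a difference of -0.34 (counting SE 0.0141), which is 1.26-fold lower in MD43. Ccnd3 was close in both genotypes, at 24.1 and 23.3 RPKM. The ratio of Ccnd1 to Ccnd2 was 1.43 in WT and 2.14 in MD43, while the sum of the 3 D cyclins was 185.8 and 188.2 RPKM. Ccnd1 made up 51.3% of that sum in WT and 59.7% in MD43, and Ccnd2 35.8% and 27.9%. Exons of Ccnd1 share 23.4% of their length with LTO1 on the opposite strand (LTO1 difference 0.15), and those of Ccnd2 share 3.95% with Gm43126 (difference -0.48), and whether the reads were counted by strand is not given in the sources used here.

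Of the kinases that pair with D cyclins, Cdk4 was the most abundant member of all, at 326 RPKM in WT and 335.3 in MD43, a difference of 0.041 (counting SE 0.0102). Cdk6 (chr5:3341485-3531008) was far lower, at 3.98 RPKM in WT and 3.15 in MD43, a difference of -0.34 (counting SE 0.0471). Cdk4 therefore made up 98.8% of their summed RPKM in WT and 99.1% in MD43. When GC content and exon length were corrected for, Ccnd2 was at -0.295 and Cdk6 at -0.28, both short of the fold rule. Exons of Cdk4 share 19.7% of their length with Tspan31 on the opposite strand, whose difference was -0.15.

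The inhibitors among the members, which hold cyclin-dependent kinases back in G1, were all at lower values in MD43, though none past the fold rule. Cdkn1b, which encodes p27, stood at 20.4 RPKM in WT and 17.0 in MD43, a difference of -0.26 (counting SE 0.0361). Cdkn2d, which encodes p19INK4d, differed by -0.089, which is near its counting SE of 0.0785. Cdkn2c, which encodes p18INK4c, had a difference of -0.28 on only 80.2 reads in WT and 91.9 in MD43, with a counting SE of 0.156. Summed over the 3 inhibitors the level was 34.01 RPKM in WT and 29.65 in MD43. With GC content and exon length corrected for, Cdkn1b was at -0.177, Cdkn2d at -0.129 and Cdkn2c at -0.316.

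At the G1/S transition Ccne1 (chr7:38097984-38107534), which encodes the cyclin E1 partner of Cdk2, had the largest difference of all members. It stood at 27.03 RPKM in WT and 38.04 in MD43 on 1155 and 2261 reads, 1.41-fold higher in MD43, with a log2 difference of 0.49 (counting SE 0.0369). Of all well-covered genes, 1.02% had a difference as high as this or higher. Its relative Ccne2 was 15.9 and 17.6 RPKM, a difference of 0.15, and the sum of both E cyclins was 42.9 RPKM in WT and 55.7 in MD43. Corrected for GC content and exon length, Ccne1 was at 0.485 and Ccne2 at 0.313. Exons of Ccne2 share 17.4% of their length with Ints8 on the opposite strand. The ratio of Ccne1 to Cdkn1b, the inhibitor that binds its complex, was 1.33 in WT and 2.23 in MD43. This ratio was not planned, and it must be higher in MD43 because these genes differed in opposite directions. It compares RNA levels, and kinase activity was not measured.

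Cdk2, the kinase of E cyclins, lay on the other side of 0 from them, at 19.3 RPKM in WT and 18.3 in MD43, a difference of -0.076. The activator E2F factors, which drive the genes of S phase, were mixed. E2f2 and E2f3 were higher in MD43 by 0.16 and 0.15 on the log2 scale, and E2f1 was lower, at -0.12. Their summed RPKM was 42.3 in WT and 43.9 in MD43, of which E2f3 was the largest share at 48% and 51%.

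Of the S phase members, all 6 Mcm genes, which encode the ring of the replicative helicase, were higher in MD43. Mcm5 stood at 96.0 RPKM in WT and 116.3 in MD43 (difference 0.28), and Mcm2 at 54.2 and 64.1 (0.24). Mcm7 differed by 0.13, Mcm4 by 0.11 and Mcm3 by 0.10, and Mcm6 differed least, by 0.064 with a counting SE of 0.0167. Their summed RPKM was 524.6 in WT and 582.5 in MD43. The median difference of the 6 was 0.12, and none passed the fold rule. Mcm5 and Mcm6, whose E2F words are printed above, were at opposite ends of this order.

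The licensing factors Cdc6 and Cdt1, which load the Mcm ring onto origins, were higher in MD43 too. Cdc6 stood at 13.8 RPKM in WT and 15.4 in MD43 (difference 0.16, counting SE 0.0384), and Cdt1 at 35.0 and 38.1 (0.12, counting SE 0.0313). Pcna, the sliding clamp of the polymerases and the most abundant member of this phase, was level at 153.6 and 152.9 RPKM, a difference of -0.006 with a counting SE of 0.0174. Pseudogene copies match Pcna, Mcm7, Cdc6, Ccnb1 and Ccnd3 at 95% identity or more over at least 300 bases, and how reads with several matches were placed is not given in the sources used here.

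Among G2 and M members the cyclins and their kinase were close between genotypes. Ccna2, cyclin A2, stood at 79.6 RPKM in WT and 79.4 in MD43. Ccnb1 stood at 50.3 and 52.2 (difference 0.055, counting SE 0.0227) and Ccnb2 at 69.3 and 73.4 (0.082, counting SE 0.0320). Cdk1, which both B cyclins need, stood at 49.46 and 50.02 RPKM. The proliferation marker Mki67 was 58.2 in WT and 60.6 in MD43, and Top2a, which untangles replicated DNA, was 101.9 and 97.8. The chromosomal passenger genes Aurkb and Birc5 differed by 0.039 and 0.013, and the spindle kinase Aurka by 0.044, all within 2 counting standard errors.

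The largest differences in well-covered G2 and M genes were in mitotic progression. Bub1b, a spindle checkpoint gene, stood at 60.1 RPKM in WT and 70.3 in MD43 (difference 0.23, counting SE 0.0202). Plk1, a mitotic kinase, stood at 68.1 and 79.3 (0.22, counting SE 0.0265). Cdc20, which activates the anaphase-promoting complex, stood at 114.2 and 130.7 (0.19, counting SE 0.0222). Bub1, the checkpoint partner of Bub1b, was close in both genotypes, at 42.4 and 41.6 RPKM (-0.028, counting SE 0.0247). With GC content and exon length corrected for, Bub1 was at 0.076. The kinesin Kif20a and the spindle factor Tpx2 differed by 0.087 and 0.063. The kinetochore genes Cenpe and Cenpf were at -0.031 and -0.075, the lowest of the phase together with Top2a at -0.060. After the correction for GC content and exon length, Cenpe was at 0.051, Cenpf at -0.001 and Top2a at 0.018. Exons of Kif20a share 29.3% of their length with Cdc23 on the opposite strand, and those of Ccna2 share 12.5% with Exosc9. Smaller overlaps of this kind were found for Mcm7 (7.25%), Plk1 (7.09%) and Ccnd3 (4.11%), among others.

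Kif11, the kinesin that pushes spindle poles apart, stood apart in level. It was listed at 0.117 RPKM in WT and 0.159 in MD43, where every other G2 and M member was above 20 RPKM, and its difference of 0.45 rests on 14.0 and 26.5 reads with a counting SE of 0.337. It lies at chr19:37376403-37421859, and the genes on either side, Ide and Hhex, were listed at the value of genes without reads in both genotypes. Cpeb3, beyond Ide, had 17.0 and 39.6 reads, and Exoc6, beyond Hhex, had 261.4 and 345.1. The cause of this stretch was not tested. Without Kif11 the members past the fold rule were 1 higher and 2 lower, and the G2 and M median was 0.044.

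Other genes of the cell cycle, in lists by role, were also close between genotypes. Of 140 listed genes that were expressed, 3 were higher in MD43 by the fold rule (2.14%) and 3 lower (2.14%), with a median of 0.059. By the same rule 10.3% of all expressed genes were higher and 13.9% lower. Of all well-covered genes, 4.34% were higher and 7.15% lower. Of 47 replication genes none passed the rule, 34 were higher, as were 5685 of the 10757 well-covered genes, and the median was 0.062. The largest among them were Fen1, the flap nuclease, at 59.5 RPKM in WT and 71.5 in MD43 (0.27), Orc2, an origin subunit, at 0.23, and Clspn, a checkpoint mediator, Chaf1a, a histone chaperone subunit, and Pold1, a polymerase subunit, at 0.21, 0.21 and 0.20. Of 53 other mitotic genes 3 passed the rule, all higher in MD43, and the median was 0.066. They were Espl1, which encodes separase, at 12.04 and 16.14 RPKM (0.42, counting SE 0.0307), Gtse1 at 21.5 and 28.2 (0.39, counting SE 0.0413) and Nek2, which rests on 36.7 and 82.6 reads. Troap, Kif14 and Incenp followed at 0.29, 0.23 and 0.18.

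By the fold rule 13.9% of all expressed genes and 7.15% of well-covered genes were lower in MD43. Of the 10757 well-covered genes, 5072 were lower by any amount. Of 8 other inhibitors and quiescence genes that were expressed 5 were lower in MD43, 1 past the rule. Their median was -0.11, and -0.017 when GC content and exon length were corrected for. Ccng2, a cyclin of resting cells, stood at 13.5 RPKM in WT and 8.35 in MD43, a difference of -0.69 (counting SE 0.0436). Cdkn1c, which encodes p57, stood at 102.8 and 82.8 (-0.31). The antiproliferative genes Btg2 and Btg1 were at -0.29 and -0.18. Gas1, named for growth arrest and also a Hedgehog co-receptor, was at 0.31. Cdkn2a and Cdkn2b were at the level of genes without reads or close to it.

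Of the 10757 well-covered genes, 7.15% were lower in MD43 by the fold rule, and 5685 were higher by any amount. Of all expressed genes 13.9% were lower by the rule. Of 17 pocket proteins, other E2F and DREAM genes 9 were higher and 8 lower, with a median of 0.023. Rb1, the retinoblastoma gene, stood at 7.60 RPKM in WT and 5.72 in MD43 (-0.41, counting SE 0.0527), the only one of these past the rule. Its relative Rbl2 was at -0.24. E2f4, an E2F of the DREAM complex, was at 0.31, Mybl2, which binds the same core in dividing cells, at 0.22, and the repressor E2f7 at 0.20. Of 15 other regulators of the kinases 1 passed the rule, Ccna1, at -1.07 on 24.0 reads in WT and 15.9 in MD43, and the median was 0.050. The phosphatase Cdc25a was at 0.16, the anaphase-promoting activator Fzr1 at 0.16, Cdc25b at -0.14, Ccnf at 0.14 and Cdc25c at 0.095.

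Over all well-covered protein-coding genes with a window, differences by promoter word were small. The median difference was 0.033 for 1453 genes with an E2F word and no CHR word, 0.018 for 432 genes with CHR and NF-Y words and no E2F word, and 0.013 for 3221 genes with none of the words.

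Markers of some tissues in or around the FNP differed between the genotypes by more than the cell cycle phases did. By the fold rule 10.3% of all expressed genes were higher in MD43 and 13.9% lower. Of all well-covered genes 4.34% were higher and 7.15% lower. All 9 markers of facial mesenchyme were well covered, with a median difference of 0.008 and a summed RPKM of 155.7 in WT and 156.7 in MD43. Among them Twist1 was at -0.39, Pax7 at 0.39, Pdgfra at -0.33 and Prrx1 at -0.29. All 8 surface ectoderm markers were well covered and higher in MD43, 7 past the fold rule. They were led by Cldn6 at 0.87, Cdh1 at 0.73, Krt8 at 0.70, Grhl2 at 0.68 and Epcam at 0.61. All 8 red blood cell markers were past the rule, and the well-covered ones were Slc4a1 at 1.52, Hbb-bh1 at 1.04, Hbb-y at 0.84, Hba-x at 0.79 and Tal1 at 0.66.

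Of 8 neuron markers, all well covered, 6 were lower in MD43, and 4 were lower by the rule. By the same rule 7.15% of all well-covered genes and 13.9% of all expressed genes were lower. Gap43 was at -0.74, Ina at -0.64, Nhlh2 at -0.49, Stmn2 at -0.32 and Elavl4 at -0.10. Of 8 forebrain markers 1 was higher and 2 were lower by the rule, with a median of -0.20 and sums of 164.7 and 173.2 RPKM. Otx2 was at -0.62, Lhx2 at 0.49, Emx2 at 0.30, Six3 at -0.28 and Sox1 at -0.23. Of 8 endothelium markers 1 was lower by the rule, with sums of 18.5 and 16.5 RPKM. Kdr was at -0.33, Egfl7 at -0.28, Pecam1 at -0.17 and Cdh5 at -0.007. Cdh5 (counting SE 0.104), Pecam1 (counting SE 0.129) and Elavl4 (counting SE 0.0714) were within 2 counting standard errors of 0. The part of these tissues in the cell cycle differences was not tested.

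**Figure D5:**
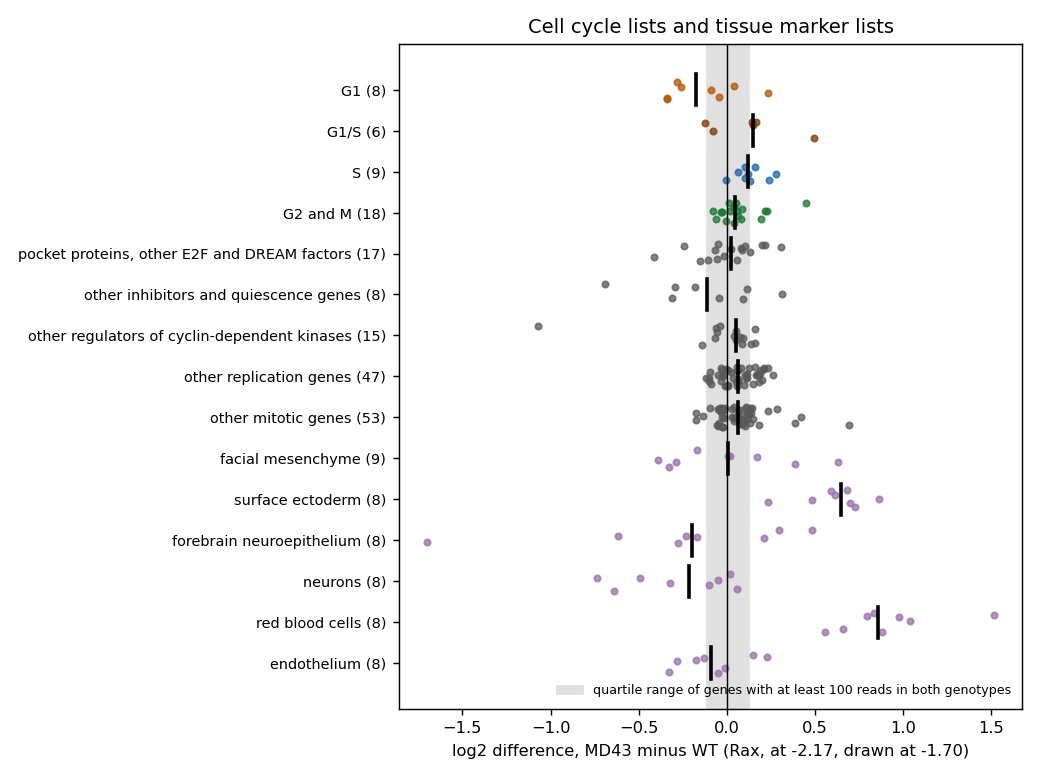
Log2 difference (x axis, MD43 minus WT) of each expressed gene in the member phases (coloured), other cell cycle lists (dark grey) and tissue marker lists (purple), with a black bar at each list's median and the number of genes in brackets. The grey band runs between the quartiles of all well-covered genes, and the surface ectoderm and red blood cell markers lie to its right.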

How the data were processed

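RNA was taken from each FNP, 100 ng in total, made into libraries with a stranded mRNA kit and sequenced from one end. The authors trimmed reads with Trim Galore 0.4.4, mapped them with HISAT2 2.0.5 to GRCm38.p6 (submitters' processing notes) and quantified genes in SeqMonk, leaving out the sex chromosomes. The deposited values are log2 RPKM, scaled by the authors to library size and to transcript length, with a single column for WT and another for MD43. The 3 other value columns hold the authors' FDR, log-fold change and average log expression, and were not used. As the deposited table gives no values for single libraries, no model across genes was fitted to it and no test was made.

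Reads per gene were recovered from each log2 RPKM value and the exon length in GENCODE M21, which matched 33101 of 33708 rows. A library without reads is listed as 0.9 reads, and the product of the 2 libraries' reads came out whole, within 0.01, for 99.9% of genes where it was under 1000. Reads given are the geometric mean of both libraries. Recovery was also run on values simulated with the same floor and exon lengths, which checks the arithmetic only. The calculations used Python 3.11.15, pandas 2.3.3 and BLAST 2.17.0.

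Every member is reported. Of each other list, up to 5 genes with the largest differences among the well-covered ones (100 reads or more in WT and in MD43) are named. Nek2 and Ccna1, which have fewer reads, were named after their values were seen, as the only other genes past the fold rule. Ide, Hhex, Cpeb3 and Exoc6 are named for their place. The members and lists were chosen with earlier results of these data known. Kif4, Cenpi and Alas2 were not analysed here, and 1 facial mesenchyme gene that the naming rule selects is not reported here. A planned search for protein motifs was not run. Alternatives were other folds, pseudocounts, a filter, centring, and a correction for GC content and length.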

Additional observations from a re-analysis of the deposited data

How the results depend on the processing

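Counts of members higher (2) and lower (2) in MD43 by the fold rule were 12 and 4 at 1.1-fold and 0 and 0 at 1.5-fold. The higher count was 1 with a pseudocount of 0.1 or 1 RPKM, among well-covered members, or, chosen after seeing the data, without Kif11. The lower count was 1 with a pseudocount of 1 RPKM, where Cdk6 was at -0.27, and 0 after the GC and length correction, where Ccnd2 was at -0.29 and Cdk6 at -0.28. For other cell cycle genes the counts of 3 and 3 were 29 and 11 at 1.1-fold, and 1 and 2 at 1.5-fold; under the other settings they were 2 or 3 higher and 3 or 4 lower. The G1 median was -0.089 among well-covered members, and the median of other inhibitors was -0.017 after the GC and length correction. All 10 medians kept their sign in the 51 alternatives. Of 164 member values, 151 moved by less than 2 counting standard errors, and 6, each from a member no larger than 0.06 in size, changed sign. All 13 values that moved further came from the GC and length correction, which thus moved 13 of the 41 members. Centring shifted every member by only 0.013, and a small pseudocount changes abundant genes little. Values under those settings had little room to move, so the count of 151 says little about stability. With no filter 53.1% of all genes would count as lower, since genes without reads are listed lower in the deeper MD43 libraries. No paired analysis was possible because the deposited table, the only source of values used here, pools the libraries of each genotype, and leaving out single replicates was not run for the same reason. Depth limits Kif11 and Cdkn2c most.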

Other observations

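Stretches like that around Kif11 were found beside other cell cycle genes. Skp2, an F-box gene that marks Cdkn1b protein for decay, was listed at the value of genes without reads in both genotypes, and so was its neighbour Nadk2, while Lmbrd2 had 12.7 reads in WT and 8.48 in MD43. Nek2 had 36.7 and 82.6 reads, and its neighbours Slc30a1 and Traf5 had no more than 3, while Lpgat1, on the other side, had 1568 and 2700. Men1, Ehd1 and Map4k2 were listed without reads, while Cdca5 close by had 1248 and 1913. These genes were chosen after their values were seen, and the cause was not tested.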
